A study of Mus musculus with 12 samples.

Results

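The hippocampi of 4 MRL/lpr mice were compared with those of 4 Fn14ko mice, 8 of the 12 mice profiled. Members were taken by their strain label, with titles HL1 to HL4 for MRL/lpr and HK1 to HK4 for Fn14ko. All were adult females. MRL/lpr mice carry the lpr mutation of *Fas* on the MRL background and develop a lupus-like disease. Fn14ko mice were bred on the same MRL/lpr background, so that they share the lpr mutation, and lack in addition a working *Tnfrsf12a*, the gene of the TWEAK receptor Fn14. The remaining 4 mice, labelled MRL/MpJ and called MRL/+ below, have a working *Fas* and entered the fits as the third group. The knockout is inherited through the germline and is not limited to a cell type. The tissue is given as hippocampus, although cortex is mentioned too in the descriptions.

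Fn14 is a small receptor of the TNF receptor superfamily. It binds TWEAK, encoded by *Tnfsf12*, recruits TRAF adaptors and drives NF-kB signalling, and in the brain it is found on endothelial cells, astrocytes and neurons. In lupus-prone mice, this pathway has been linked to leakage of the blood-brain barrier, deposition of complement and immunoglobulin, and depression-like behaviour. The comparison asks what changes in the hippocampus of a lupus-prone mouse when this receptor is removed. All differences below are MRL/lpr minus Fn14ko, so that a positive value means a higher level in MRL/lpr.

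Each of the 4 arrays of these groups took 2 mice of the same phenotype, one labelled with Cy3 and the other with Cy5, with 1 slide for the 2 arrays of each phenotype. Slide and phenotype cannot be told apart. The array of MRL/lpr replicates 3 and 4, called HL3_HL4, was weak. The median foreground of its channels was 1.93 and 1.73 times background, whereas the other 6 mice of the comparison were at 4.42 to 12.6 times. In the Cy5 mice of MRL/+, negative controls read 208 and 211, above the median foreground of 160 and 169. Well above background were 29.6% and 31.8% of their spots. Both mice entered the fits and the bins by level below. In the Cy5 mice of Fn14ko, negative controls read 87.5 and 90.6 over backgrounds of 32.5 and 32, so that spots near control level could be valid. Across the genes valid in all samples, mice of array HL3_HL4 correlated with the other MRL/lpr and the Fn14ko mice with r from 0.26 to 0.49. MRL/lpr replicates 1 and 2 correlated with the Fn14ko mice with r from 0.94 to 0.97. Genes are not independent replicates, and these r are descriptions. Therefore lists are given with and without array HL3_HL4. Genes it measured are given by levels that show its mice apart, by differences or calls with and without it, or by both. A level below is the background-subtracted intensity of a gene divided by the median of its channel. Genes with a valid spot in all 12 mice, meaning a foreground at least 2 times background and no outlier flag, are given as levels of all 8 mice. Genes that array HL3_HL4 did not measure are given as levels of the other 6. The 2 kinds of level rest on different medians and are not compared with each other, nor are the levels of different probes. A valid spot had a background-subtracted intensity at least as high as its background. On array HL3_HL4 the median background was 27 and 32 and the channel median of valid spots 169.7 and 74.7. In Fn14ko these were 32 to 33.5 and 2127 to 4383. A gene dim in Fn14ko therefore counted as measured on array HL3_HL4 only where its level there was high. At such genes, a rise and a lack of overlap on this array were close to given by the filter.

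With all 12 samples, 353 of 8864 genes passed an adjusted p of 0.05, which is 3.98% of the genes tested. Of these, 196 were higher (2.21%) and 157 lower (1.77%) in MRL/lpr. Without array HL3_HL4, more genes had valid spots and 1636 of 17936 passed (9.12%), 733 higher (4.09%) and 903 lower (5.03%). Of the 353 genes, 353 kept their sign when the array was left out on the same spots, and 305 were also called in the wider fit without it. These fits share mice and 350 of the 353 genes did not overlap, so that a kept sign was close to given. In the other direction, 829 of the 1636 genes were measured on array HL3_HL4, and 722 of these had the same sign with it. At genes dim in Fn14ko, the filter favoured a rise on this array. Over all 8864 genes, 67.7% had the same sign with and without the array. The 4 MRL/lpr and 4 Fn14ko mice did not overlap at 1903 genes (21.5%), among them 350 of the 353 genes called (3.95% of the genes tested). Without the array, the mice did not overlap at 37% of genes, so that 2 MRL/lpr mice lying outside the 4 Fn14ko mice was common and is read below beside the test. The called set also shrank to 18 of 8898 genes when the 4 MRL/+ mice were left out of the 12-sample fit, and to 4 when the array was a random block.

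The values without the array rest on 2 MRL/lpr mice. The call count without it was 303 when MRL/lpr replicate 1 was left out as well and 713 without replicate 2, and it was 1016 and 888 without Fn14ko replicates 2 and 4. Of the 1636 genes called without the array, 1598 had no overlap between the groups. A kept sign with 1 mouse left out was therefore close to given. Of the genes named below, 87 were called without the array. Their sign was the same in 87 of 87 when any 1 mouse was left out, 40 stayed past the threshold without MRL/lpr replicate 1 and 65 without replicate 2, and 78 to 83 did so without a Fn14ko mouse. Past the threshold whichever mouse was left out were 38 genes, among them *Lct*, *Lefty1*, *Spink8*, *Cpne7* and *Homer3* of the hippocampal fields, *Cux2*, *Tbr1* and *Lamp5* of neighbouring regions, *Cd74*, *H2-Eb1*, *C3*, *Ifi35* and *Serpina3n* of the immune genes and *Gabra5*, *Stx1a*, *Nptx2* and *Kcnab3* of the synaptic genes. Not among them were the named choroid plexus genes, *Jchain*, *Gfap*, *Gria1* and *Tnfrsf12a*.

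The size and direction of the difference depended on the brightness of a gene when array HL3_HL4 was included. Genes were divided into 5 bins by their level in MRL/+, a group outside the contrast. From the dimmest to the brightest bin, the median log2 difference was 2.02, 0.46, -0.10, -0.49 and -0.72 with all 4 MRL/lpr mice. Without the array, on the same spots, the medians were 0.21, 0.07, -0.03, -0.06 and -0.06. Of the 196 rises with all mice, 81 lay in the dimmest bin and 14 in the brightest, whereas 0 and 66 of the 157 falls did. In these dim and bright bins, the values without the array carry the description below. The part of the array's low signal in each single value was not tested.

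**Figure D1:**
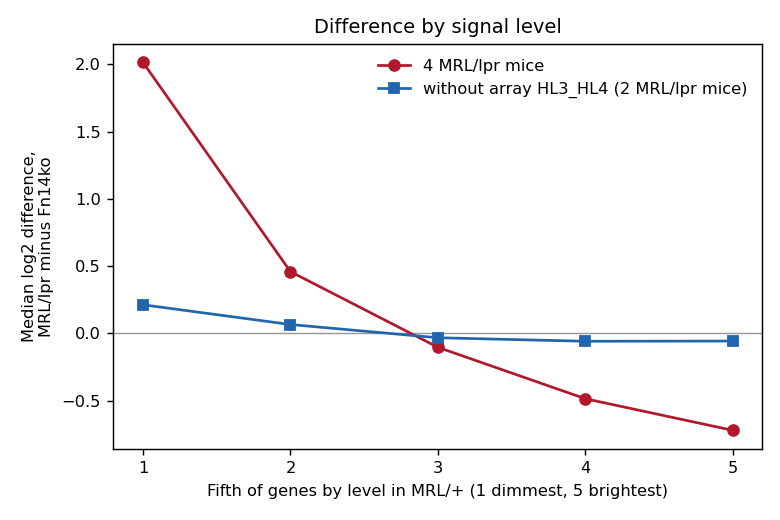
Median log2 difference, MRL/lpr minus Fn14ko, over the genes of each of 5 bins by level in MRL/+ (horizontal axis, dimmest to brightest). Circles are medians with all 4 MRL/lpr mice and run from 2.02 to -0.72, and squares are medians on the same spots without array HL3_HL4, which run from 0.21 to -0.06.

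The probe for the targeted gene did not read zero in the knockout. *Tnfrsf12a* was measured by 1 probe on chromosome 17, from 23812746 to 23812805 in mm9, and the annotation used gives no exon for it. Its level was 1.66 and 1.16 in MRL/lpr replicates 1 and 2, and 0.701, 0.634, 0.771 and 0.603 in Fn14ko replicates 1 to 4. Both MRL/lpr mice lay above all 4 Fn14ko mice, with a log2 difference of 1.04 ± 0.25 (SE, adjusted p = 0.0264). With 1 mouse left out in turn it ran from 0.80 to 1.27, and the call was lost in 4 of 6 cases (adjusted p up to 0.313). Array HL3_HL4 gave no valid spot for it. The probe checks the genotype only if it lies in the removed part of the gene, which the sources used here do not state, and the mice are called Fn14ko as labelled. *Fas* was dim in all mice, at 0.145 and 0.106 in MRL/lpr and 0.165 to 0.233 in Fn14ko, and the difference of -0.69 ± 0.43 did not pass (adjusted p = 0.39).

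*Tnfsf12*, which encodes the ligand TWEAK, was at 0.214, 0.222, 1.72 and 1.45 in MRL/lpr replicates 1 to 4 and at 0.179 to 0.206 in Fn14ko. The high values were those of array HL3_HL4, and the 12-sample difference of 1.61 ± 0.64 did not pass (adjusted p = 0.114). Without the array it was -0.04 ± 0.20 (adjusted p = 0.95), averaged over 2 probes. Of the 32 measured ligands, receptors and adaptors of the TNF superfamily, 1 was higher (*Tnfrsf12a*) and 1 lower without the array, and the median was -0.02, compared with -0.04 over all genes. With it, 0 of the 9 measured members passed.

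Among the genes called with all mice, the largest differences were mostly larger with array HL3_HL4 than without it. For the 12 largest rises, both mice of that array lay above both other MRL/lpr mice in 12 of 12 genes, and for the 12 largest falls they lay below both in 9 of 12. *Ydjc* was at 0.214, 0.482, 4.25 and 11.9 in MRL/lpr and 0.0091 to 0.0174 in Fn14ko, a difference of 6.82 ± 1.14 (adjusted p = 0.0116). On the same probe without the array it was 4.58. Its other probe, valid only without the array, went the opposite way (-0.44), and over both probes the difference was 0.18 ± 0.28 (adjusted p = 0.784). *Rd3l* differed by 6.18 with all mice and by 3.73 without the array. *Zfp809*, a zinc finger repressor of endogenous retroviruses, differed by 5.32 with all mice and by 4.36 on the same probe without the array. Together with another probe valid only without the array (0.32), its difference was 2.11, which passed as well. Without the array, *Abhd2*, an alpha/beta hydrolase, was at 1.53 and 2.71 in MRL/lpr and at 0.0891 to 0.125 in Fn14ko, and *Olfr9*, an olfactory receptor gene, was at 1.42 and 3.82 compared with 0.0968 to 0.151. *Tas1r3*, a subunit of sweet and umami taste receptors, was at 0.31, 0.763, 0.283 and 0.457 in MRL/lpr and at 0.0275 to 0.0381 in Fn14ko, and was called in both fits (3.68 with all mice and 3.81 without the array). These 3 genes were dim in Fn14ko, and in MRL/+ they were higher in the Cy5 mice (0.313 and 0.392 for *Abhd2*) than in the Cy3 mice (0.103 and 0.111). The part of the dye in single values was not tested beyond its term in the fit.

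Of the 12 largest falls with all mice, some kept their size without the array and others were smaller. *Necab3*, which encodes a neuronal calcium-binding protein, was at 0.658, 0.698, 0.457 and 0.486 in MRL/lpr and at 2.26 to 3.25 in Fn14ko. The groups did not overlap, and the difference was -2.31 ± 0.23 with all mice and -2.13 ± 0.24 without the array. *Ngef*, a guanine exchange factor that acts with Eph receptors, was at 2.59, 4.07, 1.07 and 1.18 in MRL/lpr and at 8.42 to 15.5 in Fn14ko. *Camk2n1*, an endogenous inhibitor of CaMKII, differed by -2.67 with all mice and by -1.71 without the array. *Cdh22*, a cadherin, differed by -2.79 and -1.78, and *Cobl*, an actin nucleator of dendrites, by -2.27 and -2.97. *Ttc9b* differed by -2.42 and -1.26, *Grasp*, a scaffold of metabotropic glutamate receptors, by -2.24 and -1.17, and *Rcan2*, a regulator of calcineurin, by -2.21 and -1.34. All of these passed the threshold in both fits.

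Most markers of hippocampal fields that passed the test were higher in MRL/lpr. The hippocampus is built of granule neurons in the dentate gyrus and pyramidal neurons in CA1, CA2 and CA3, and each field is known by its own genes. Without array HL3_HL4, 4 of 14 measured dentate markers were higher and 0 lower (median 0.67), 7 of 18 CA1 markers were higher and 2 lower (median 0.69), and 4 of 15 CA2 and CA3 markers were higher and 0 lower (median 0.43). Over all genes, the median was -0.04 and 9.12% were called. With all mice, 3 of 10, 4 of 14 and 2 of 11 were higher and 0 lower in each list, with medians of 1.86, 0.69 and 0.59. Of the called markers of the 3 fields, those measured on array HL3_HL4 had the same sign with it. For the markers dim in Fn14ko, this sign was close to given by the filter.

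*Lct*, which encodes lactase and marks granule neurons in the mouse brain, was at 1.04, 0.816, 1.25 and 0.904 in MRL/lpr replicates 1 to 4 and at 0.0806, 0.116, 0.14 and 0.105 in Fn14ko. The 2 arrays of MRL/lpr gave like levels, and no mouse overlapped the other group. With *Lct* this dim in Fn14ko, the filter made a higher level on array HL3_HL4 close to given. The log2 difference was 3.19 ± 0.29 with all mice (adjusted p = 0.000641) and 3.00 ± 0.24 without the array (adjusted p = 0.000118). An exact permutation test of 4 mice against 4 gave p = 0.0286, the smallest it can give. Every gene without overlap gives this p, and 21.5% of the genes tested had no overlap, so it adds nothing to the lack of overlap. Below it is printed only for *Ttr* and *Akt1*, and some genes named there overlap. *C1ql2*, a synapse organizer secreted at mossy fibres, was at 0.275, 0.207, 0.368 and 0.526 in MRL/lpr and at 0.0323 to 0.0539 in Fn14ko. *Il16*, whose neuronal form is found in granule cells, was not measured by array HL3_HL4 and was at 1.32 and 1.18 in MRL/lpr and at 0.126 to 0.15 in Fn14ko (difference 3.18 ± 0.39). *Sema5a*, an axon guidance gene that restrains granule cell synapses, differed by 1.44 with all mice and 1.68 without the array. *Dgat2*, the brightest measured dentate marker in Fn14ko, did not pass in either fit (0.36 with all mice and 0.09 without the array).

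In CA1, *Lefty1*, an inhibitor of nodal signalling, was at 0.338, 0.642, 0.285 and 0.425 in MRL/lpr and at 0.0347 to 0.055 in Fn14ko. The difference was 3.30 ± 0.51 with all mice and 3.42 ± 0.27 without the array. Under quantile normalization of all 12 samples it was 1.28 and did not pass (adjusted p = 0.208). *Fibcd1*, a chitin-binding receptor of CA1 neurons, was at 0.143, 0.0917, 1.41 and 1.48 in MRL/lpr and at 0.0177 to 0.02 in Fn14ko. The size was set by the weak array (4.42 with it and 2.51 without), and the direction on that array was close to given by the filter. Outside the marker lists, *Spink8*, a serine protease inhibitor enriched in CA1, and *Npy2r*, a receptor of neuropeptide Y, were named as members of the 10 largest rises without the array. *Spink8* was at 2.68 and 4.17 in MRL/lpr and at 0.106 to 0.252 in Fn14ko. *Npy2r* was at 1.92 and 4.65 compared with 0.0403 to 0.357. *Epha7*, an Eph receptor, differed by 1.28 ± 0.20 without the array and by 0.88 ± 0.28 with it, which did not pass (adjusted p = 0.0809). *Wfs1*, the brightest measured CA1 marker in Fn14ko, did not pass in either fit (-1.21 with all mice and -0.02 without the array).

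In CA2 and CA3, *Cpne7*, a calcium-dependent phospholipid-binding protein, was at 6.05, 5.91, 4.26 and 1.8 in MRL/lpr and at 1.07 to 1.26 in Fn14ko. *Homer3*, a scaffold of metabotropic glutamate receptors, was at 0.306, 0.298, 0.331 and 0.466 compared with 0.0639 to 0.082. Neither gene overlapped between groups, and both passed with and without the array, *Homer3* by 2.26 and 1.98. *Homer3* was dim in Fn14ko, so that the filter favoured a rise on array HL3_HL4. Under quantile normalization of all 12 samples *Homer3* differed by 0.68 and did not pass (adjusted p = 0.268). *Rgs14*, a brake on plasticity in CA2, differed by 0.75 ± 0.18 without the array (adjusted p = 0.0297) and by 0.59 ± 0.24 with it (adjusted p = 0.119). *Nnat*, an imprinted membrane protein of developing neurons, was at 8.54, 5.66, 3.72 and 2.81 in MRL/lpr and at 3.5, 1.76, 0.899 and 1.48 in Fn14ko, and passed without the array (1.95 ± 0.49, adjusted p = 0.0348) but not with it (adjusted p = 0.0718). *Pcp4*, the brightest measured marker of this list in Fn14ko, was at 6.66, 8.1, 1.54 and 1.32 in MRL/lpr and at 7.78 to 12 in Fn14ko, and did not pass in either fit.

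Among markers of the striatum and neocortex that passed, more were lower than higher in MRL/lpr. Over all measured neocortical markers, 12 of 26 differences were above 0 without array HL3_HL4 and 11 of 15 with all mice. Without array HL3_HL4, 10 of 21 measured striatal markers were lower and 1 higher (median -1.25), and 10 of 26 markers of neocortical layers were lower and 4 higher (median -0.15). With all mice, 5 of 12 striatal markers were lower and 0 higher (median -0.76), whereas 2 of 15 neocortical markers were lower and 1 higher and the median was 0.53. Some genes of these lists are also expressed within the hippocampus. In bulk tissue, fewer cells of a type and less RNA per cell cannot be told apart, and the share of each region in the dissected tissue was not measured other than through these genes.

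The neocortical genes *Cux2* and *Tbr1* are transcription factors of upper and deep layers. *Cux2* was at 0.471 and 0.656 in MRL/lpr and at 2.12, 2.49, 3.12 and 2.54 in Fn14ko (-2.19 ± 0.20, adjusted p = 0.00019). *Tbr1* was at 1.77 and 1.75 compared with 5.89 to 8.44 (-1.96 ± 0.19). Array HL3_HL4 gave no valid spot for either. *Lamp5*, a membrane protein of cortical neurons and interneurons, was at 0.524, 0.59, 0.437 and 0.592 in MRL/lpr and at 1.63, 3.16, 3.3 and 3.43 in Fn14ko, with a difference of -2.38 ± 0.23 with all mice and -2.42 ± 0.26 without the array. *Plcxd2*, a phospholipase-like gene of upper layers, was between 0.496 and 0.516 in all 4 MRL/lpr mice and at 1.38 to 1.7 in Fn14ko. For both genes, the weak array gave levels like those of the other one. *Rorb*, a nuclear receptor of layer 4, differed by -1.46 ± 0.20 without the array.

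Striatal neurons are known by the phosphoprotein DARPP-32 (*Ppp1r1b*), the sodium channel subunit *Scn4b* and the opioid peptide precursors *Penk* and *Pdyn*. *Ppp1r1b* was at 1.76, 1.05, 1.39 and 1.7 in MRL/lpr and at 4.15, 4.99, 9.71 and 3.65 in Fn14ko. *Scn4b* was at 0.269, 0.208, 0.493 and 0.614 compared with 0.792, 1.41, 3.09 and 0.968. In both genes, Fn14ko replicate 3 was the highest mouse and no MRL/lpr mouse reached the lowest Fn14ko mouse. *Penk* was at 6.25 and 6.78 compared with 13.5 to 37.1 (-1.81 ± 0.35), and *Pdyn*, also known from granule cells, differed by -1.22 with all mice and -1.35 without the array. The summed level of the 21 striatal markers was 43.2 and 40.9 in MRL/lpr replicates 1 and 2, and 79.9, 113.6, 170.1 and 72.2 in Fn14ko. In MRL/+ it ran from 43.0 to 66.5, so that the Fn14ko mice were also above that group. The summed level of the neocortical list overlapped, with 71.9 and 81.3 in MRL/lpr and 70.4 to 83.3 in Fn14ko, but bright probes weigh most in a sum. Its mean log2 level did not overlap, at -0.50 and -0.35 in MRL/lpr and -0.07 to 0.08 in Fn14ko.

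The 3 largest falls without the array were *Dkkl1* (-4.60 ± 0.25), *Krt12* (-3.97 ± 0.38) and *Rasgef1c* (-3.90 ± 0.23). *Dkkl1*, which encodes a secreted protein related to the Dickkopf Wnt inhibitors, was at 0.288 and 0.361 in MRL/lpr and at 5.51 to 9.19 in Fn14ko, and *Rasgef1c*, a Ras exchange factor, at 0.564 and 0.706 compared with 6.34 to 11.3. *Krt12*, a keratin, was at 0.117 and 0.158 compared with 1.5 to 2.47. None of them had a valid spot on array HL3_HL4. Among hypothalamic and thalamic markers 3 of 23 were higher and 3 lower without the array, and 1 of 5 was higher and 1 lower with all mice. *Cartpt*, the precursor of the CART peptides, was at 0.156, 0.18, 0.355 and 0.576 in MRL/lpr and at 0.717 to 1.72 in Fn14ko. Of 24 markers of GABAergic interneurons, 5 were lower and 1 higher without the array (median -0.32), and of 16 measured with all mice 2 were lower and 0 higher (median -0.82). *Vip* (-1.03 ± 0.17), *Npy* (-0.79 ± 0.16) and *Pvalb* (-0.87 ± 0.19), which mark separate interneuron classes, were among the 5. With all mice *Pvalb* passed as well (-1.23 ± 0.30), whereas *Npy* did not (adjusted p = 0.0572).

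**Figure D2:**
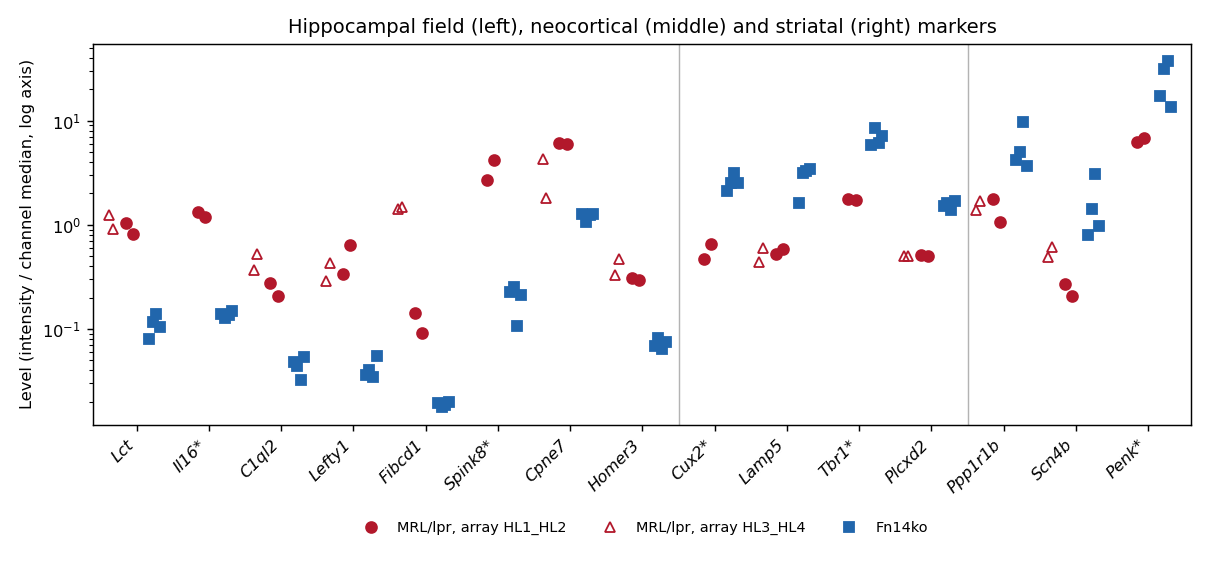
Level of each mouse (log axis, intensity over the channel median) for markers of hippocampal fields, neocortical layers and the striatum. Filled circles are MRL/lpr replicates 1 and 2, open triangles MRL/lpr replicates 3 and 4 of array HL3_HL4, and squares the 4 Fn14ko mice. An asterisk marks a gene without valid spots on array HL3_HL4, whose levels rest on another median, so that points are compared within a gene. All genes drawn passed without the array, and 1598 of the 1636 genes that passed had no overlap. At the genes drawn, field markers lie higher in MRL/lpr and neocortical and striatal markers lower, with no overlap. Markers that passed in the opposite direction (2 of 18 CA1, 4 of 26 neocortical and 1 of 21 striatal) are not drawn. *Spink8* is outside the lists and was named as a large rise. At genes dim in Fn14ko, the filter let open triangles through only where they were high.

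Genes of the choroid plexus, meninges and blood were higher in MRL/lpr where they passed. The choroid plexus secretes cerebrospinal fluid and adjoins the hippocampus in the ventricle. Without array HL3_HL4, 9 of 21 measured genes of choroid plexus and ependyma were higher and 0 lower, 21 of 21 differences were above 0 (46.5% over all genes), and the median was 2.24. With all mice, 2 of 8 were higher and 0 lower (median 2.36). *Ttr*, the thyroxine carrier of cerebrospinal fluid, was at 33.4, 10.03, 2.13 and 15.2 in MRL/lpr and at 4.61, 0.663, 0.627 and 0.297 in Fn14ko. Fn14ko replicate 1 was above MRL/lpr replicate 3, so the groups overlapped, and the difference was 3.55 ± 0.88 with all mice (adjusted p = 0.0454, exact permutation p = 0.0571) and 4.31 ± 0.73 without the array. *Folr1*, which carries folate into the fluid, was at 3.21 and 1.38 compared with 0.0905 to 0.315. *Kl*, the co-receptor Klotho, was at 5.54 and 2 compared with 0.176 to 0.732, and *Ecrg4*, a secreted peptide precursor, at 2.21 and 1.52 compared with 0.107 to 0.419. MRL/lpr replicate 1 was the highest mouse and Fn14ko replicate 1 the highest of its group in all 4 genes. With array HL3_HL4 and MRL/lpr replicate 1 both left out, 0 of the 4 passed. The summed level of the list was 251.5 and 92.6 in MRL/lpr replicates 1 and 2, 39.0 to 61.1 in Fn14ko and 36.0 to 41.5 in MRL/+.

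Of 24 genes of meninges and vessel collagen, 7 were higher and 0 lower without the array (median 0.72), and 3 of 9 were higher with all mice. *Dcn*, a proteoglycan of the meninges and of CA1, was at 2.84, 1.68, 1.43 and 1.4 in MRL/lpr and at 0.467 to 0.732 in Fn14ko. *Igf2*, a growth factor made in meninges and choroid plexus, was at 2.39 and 1.1 compared with 0.186 to 0.547. *Fbln1*, a matrix protein, passed in both fits, by 3.54 with all mice and 1.74 without the array. Of 14 erythroid genes, 6 were higher and 0 lower without the array (median 1.28). *Hbb-b1*, a beta globin, was at 10.5 and 6.12 in MRL/lpr and at 0.399 to 2.26 in Fn14ko. With all mice, 0 of 6 passed. *Hba-a1*, an alpha globin, was at 71.6, 50.7, 14.1 and 4.23 in MRL/lpr and at 9.01 to 32.2 in Fn14ko, so that the mice of array HL3_HL4 fell within and below the Fn14ko range. Its difference was 1.71 ± 0.32 without the array and 0.32 ± 0.72 with it. Near-identical globin copies share probe sequence and cannot be told apart.

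Single genes of lymphocytes, antibody-secreting cells and class II antigen presentation were higher in MRL/lpr. *Jchain*, which joins IgM and IgA chains in plasma cells, was the largest rise without the array. It was at 1.2, 0.563, 0.421 and 0.848 in MRL/lpr and at 0.0218, 0.0321, 0.0145 and 0.0457 in Fn14ko. The difference was 4.75 ± 0.82 with all mice (adjusted p = 0.0134) and 4.89 ± 0.80 without the array (adjusted p = 0.00449). *Cd79a*, part of the B cell receptor, was at 0.221, 0.117, 0.665 and 1.02 compared with 0.0516 to 0.0645. *Cd4*, a co-receptor of helper T cells, was at 1.8, 3.37, 4.61 and 4.7 compared with 1.08 to 1.56. These were the 3 of 22 T, B and plasma cell genes that passed without the array, and also the 3 of 10 that passed with it. The share called without the array was 13.6%, compared with 9.12% over all genes. At *Jchain* and *Cd79a*, dim in Fn14ko, the filter favoured a rise on array HL3_HL4. The mean log2 level of the 22 genes was 0.84 and 0.75 in MRL/lpr replicates 1 and 2 and -0.30 to 0.31 in Fn14ko. In MRL/+ it was higher in the Cy5 mice (1.40 and 1.27) than in the Cy3 mice (-0.29 and -0.20). The part of the dye was not tested beyond its term in the fit.

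Of 13 genes of MHC class II presentation, 3 were higher and 0 lower without the array (23.1% called, compared with 9.12% over all genes, median 0.43). *Cd74*, the invariant chain that escorts class II molecules, was at 19.3 and 6.19 in MRL/lpr and at 1.87, 2, 1.56 and 1.39 in Fn14ko (2.70 ± 0.34, adjusted p = 0.00112). *H2-Ab1*, a beta chain, was at 3.15 and 1.77 compared with 0.526 to 0.788. *H2-Eb1*, the other beta chain, was at 1.41, 0.841, 0.544 and 0.803 in MRL/lpr and at 0.197 to 0.239 in Fn14ko, a difference of 1.97 ± 0.37 with all mice and 2.24 ± 0.29 without the array. It was the 1 gene of the 3 measured on array HL3_HL4 that passed, and the median of those 3 was -0.47. Class II genes and *Cd74* are known to share a promoter module that ends in a Y box, the sequence bound by NF-Y. The 150 bases before the start of *H2-Eb1* are shown to let this be seen, from RefSeq at chr17:34305717-34305866 of GRCm38.p6 on the plus strand, with ATTGG or its complement CCAAT in capitals.
H2-Eb1: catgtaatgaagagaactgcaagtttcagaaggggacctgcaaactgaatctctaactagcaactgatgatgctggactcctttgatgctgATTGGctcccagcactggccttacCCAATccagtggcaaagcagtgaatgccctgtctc
The 2 matches began 59 and 35 bases before the start and did not overlap. Of 32851 mouse promoters in the same window, 24.5% held at least 1 match on either strand, so that a match alone is common. Of 26 genes of MHC class I presentation, 0 were higher and 1 lower without the array, with a median of 0.35. With all mice, 0 of 14 were called by limma (4 at an unadjusted p below 0.05) and the median was 0.09.

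Complement components were higher where they passed. Without the array, 6 of 21 were higher and 0 lower (28.6% called, compared with 9.12% over all genes, median 0.28). With all mice 1 of 12 was higher. *C3*, at which all activation pathways meet, was at 0.766, 0.463, 0.493 and 0.663 in MRL/lpr and at 0.0585 to 0.104 in Fn14ko (2.94 ± 0.44 with all mice and 2.81 ± 0.35 without the array). Its 2 probes differed by 2.04 and 3.71 without the array. *Hc*, which encodes C5, was at 0.404 and 0.716 compared with 0.0478 to 0.11, and *Masp1*, a protease of the lectin pathway, at 0.238 and 0.411 compared with 0.034 to 0.0678. *C4b*, the C4 of the classical and lectin pathways, was at 2.24, 2.23, 0.251 and 0.422 in MRL/lpr and at 0.403 to 0.909 in Fn14ko. The mice of array HL3_HL4 fell within and below the Fn14ko range, and the other 2 MRL/lpr mice above it. The difference was 1.59 ± 0.36 without the array (adjusted p = 0.0212) and 0.29 ± 0.68 with it (adjusted p = 0.754). *C4b* has a near-identical copy, *C4a*, and the probe may bind both.

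Among interferon-stimulated genes, 3 of 40 were higher and 1 lower without the array (10% called, near the 9.12% over all genes, median 0.31). With all mice 1 of 14 was higher. Of the 3 genes called without the array that array HL3_HL4 measured, only 1 had the same sign with it. *Ifi35* was at 1.51 and 3.6 in MRL/lpr and at 0.186 to 0.386 in Fn14ko. *Ifitm3*, which blocks viral entry, was at 2.46, 2.59, 3.73 and 4.05 compared with 0.93 to 1.31 (1.53 ± 0.27 with all mice and 1.17 ± 0.19 without the array).

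A pair of genes of reactive astrocytes rose. *Gfap*, the intermediate filament of reactive astrocytes, was at 3.02, 3.24, 2.82 and 3.47 in MRL/lpr and at 1.91, 0.938, 1.14 and 0.998 in Fn14ko, with a difference of 1.39 ± 0.30 with all mice and 1.32 ± 0.33 without the array. *Serpina3n*, a protease inhibitor induced in reactive astrocytes, was at 7.22 and 7.02 compared with 1.54 to 2.82 (1.90 ± 0.21). Over the 24 measured genes of reactive astrocytes, 2 were higher and 1 lower without the array (median 0.54), and 20 of 24 differences were above 0. The share called was 12.5%, near the 9.12% over all genes. With all mice, 1 of 6 was higher and 0 lower (median 0.25). Of 26 general astrocyte genes, 1 was higher and 3 lower without the array (median -0.30), and of 22 measured with all mice 1 was higher and 2 lower (median -0.75).

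Of 28 genes of microglia and macrophages, 3 were higher and 2 lower without the array (17.9% called, compared with 9.12% over all genes, median 0.04). Of 16 measured with all mice, 1 was higher and 2 lower (median -0.18). *Lpl*, a lipase of activated microglia that pyramidal neurons also express, was at 0.81, 0.812, 0.587 and 0.63 in MRL/lpr and at 0.161 to 0.322 in Fn14ko. *Itgam*, the complement receptor chain CD11b, was higher by 0.86 ± 0.21 without the array, and by 0.66 ± 0.28 with it (adjusted p = 0.126). *P2ry12*, an ADP receptor of resting microglia, was lower, at 0.355, 0.39, 0.184 and 0.412 in MRL/lpr and at 0.621 to 0.706 in Fn14ko (-1.07 ± 0.26 with all mice and -0.94 ± 0.15 without the array). Of 28 myelin genes 1 was higher and 0 lower, of 32 genes of the blood-brain barrier endothelium 0 were higher and 1 lower, and of 18 pericyte and smooth muscle genes 2 were higher and 0 lower, all without the array. With all mice, 0 of 22, 0 of 17 and 0 of 7 were called by limma (5, 8 and 1 at an unadjusted p below 0.05), with medians of -0.21, -0.51 and 0.20.

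**Figure D3:**
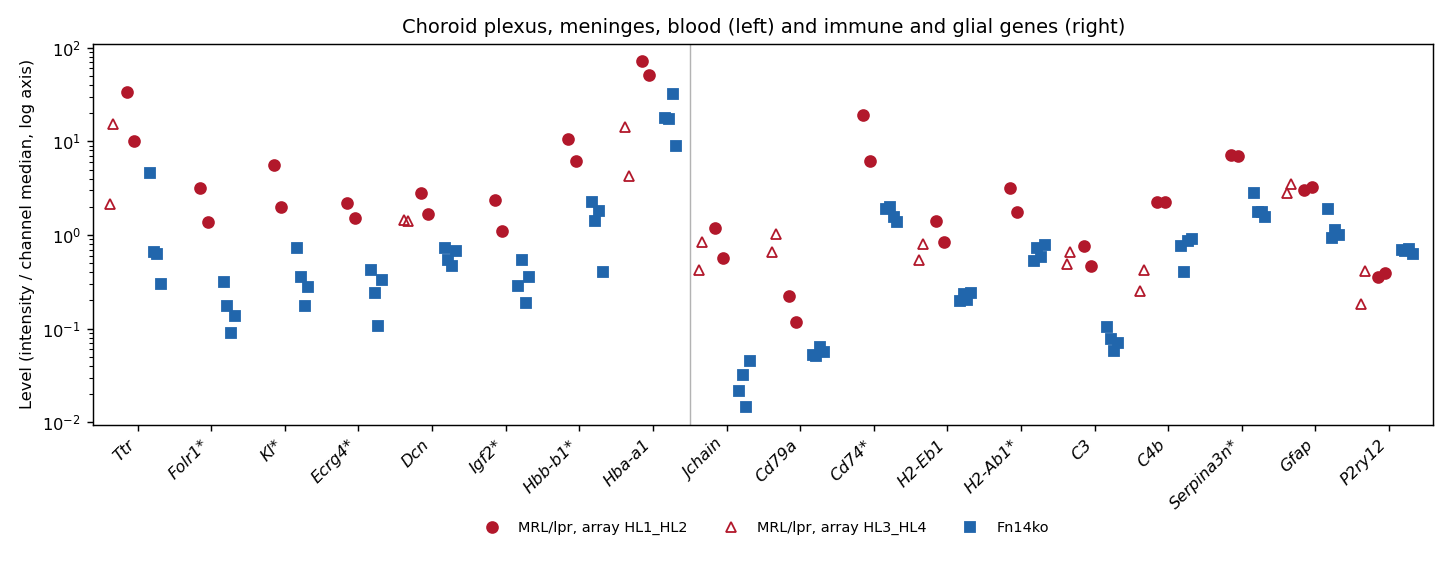
Level of each mouse (log axis, intensity over the channel median) for genes of choroid plexus, meninges and blood and for immune and glial genes. Symbols and the asterisk are as in the plot of region markers. MRL/lpr replicates 1 and 2 lie above all Fn14ko mice at each gene other than *P2ry12*, where they lie below. The open triangles lie within and below the Fn14ko range at *Hba-a1* and *C4b*, and that of replicate 3 lies within it at *Ttr*. At *Cd79a* the open triangles lie above the filled circles.

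In the lists of inflammatory and death signalling, the share of genes called without the array lay on both sides of the 9.12% over all genes. Of 33 NF-kB pathway genes, 0 were called by limma without the array and 5 had an unadjusted p below 0.05, which 23.3% of all genes had. With all mice these counts were 0 and 6 of 12, and 36.2% of all genes were below 0.05. Of 36 apoptosis genes, 2 were lower and 0 higher without the array (5.56%), and 1 of 20 was lower with all mice. Both genes are survival factors. *Bcl2l2*, which encodes BCL-W, was at 0.881, 1.83, 0.566 and 0.924 in MRL/lpr and at 2.27 to 3.33 in Fn14ko (-1.53 ± 0.31 with all mice and -1.22 ± 0.31 without the array). *Bcl2* was at 0.624 and 0.649 compared with 1.02 to 1.16. Of 37 nucleic acid sensors and Toll-like receptor genes, 1 was higher (2.70%) and 0 lower without the array, and 1 of 15 was higher with all mice. This was the inflammasome adaptor *Pycard*, at 0.236, 0.273, 0.924 and 1.37 in MRL/lpr and 0.0894 to 0.128 in Fn14ko. Among 76 genes of chemokine signalling, 3 were higher and 9 lower without the array (15.8% called, median -0.17), and 0 of 45 were higher and 2 lower with all mice (median -0.39).

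*Akt1* and *Akt2*, kinases of the PI3K-AKT pathway through which growth factors and cytokines act on survival, were lower in each MRL/lpr mouse than in each Fn14ko mouse but did not pass. *Akt1* was at 5.41, 6.44, 1.59 and 1.49 in MRL/lpr and at 6.64, 7.27, 8.38 and 8.37 in Fn14ko. The difference was -1.34 ± 0.45 with all mice (adjusted p = 0.09, exact permutation p = 0.0286) and -0.46 ± 0.20 without the array (adjusted p = 0.201). *Akt2* was at 1.41, 1.49, 0.624 and 0.736 compared with 1.67 to 2.39, a difference of -1.01 ± 0.31 with all mice (adjusted p = 0.0761) and -0.55 ± 0.18 without the array (adjusted p = 0.0823). Across 107 genes of the pathway, 7 were higher and 8 lower without the array (median -0.18), and 2 of 75 were higher and 2 lower with all mice (median -0.14). *Ntf3*, neurotrophin 3, was at 1.43 and 1.43 in MRL/lpr and at 0.233 to 0.562 in Fn14ko. *Fgfr1*, a fibroblast growth factor receptor, was at 4.42, 4.63, 0.646 and 0.638 in MRL/lpr and at 1.81 to 2.25 in Fn14ko. The weak array turned its difference from 1.16 ± 0.19 (adjusted p = 0.00429) to -0.18 ± 0.61 (adjusted p = 0.827).

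Receptors of the 2 main transmitters moved in both directions. Without the array, 5 of 39 genes of glutamate receptors and transporters were higher and 5 lower (median -0.14), and 2 of 30 genes of GABA receptors and transporters were higher and 4 lower (median 0.01). With all mice, 1 of 24 glutamate genes was higher and 1 lower (median 0.13), and 0 of 22 GABA genes were higher and 1 lower (median -0.31). *Gria1*, the AMPA receptor subunit GluA1, was at 2.3, 1.7, 3.66 and 2.01 in MRL/lpr and at 0.719, 0.54, 0.632 and 0.549 in Fn14ko. The groups did not overlap, and the difference was 1.93 ± 0.26 with all mice (adjusted p = 0.00419) and 1.62 ± 0.33 without the array (adjusted p = 0.013). *Grin2d*, an NMDA receptor subunit of interneurons, was at 0.394 and 0.581 compared with 0.137 to 0.217. *Gabra5*, the GABA-A subunit of extrasynaptic receptors on hippocampal pyramidal neurons, was at 6.6 and 4.62 in MRL/lpr and at 1.49 to 1.77 in Fn14ko (1.78 ± 0.18, adjusted p = 0.000295). *Gabrd*, the extrasynaptic subunit known from granule cells and thalamus, went the other way, at 1.25, 1.23, 0.593 and 1.28 in MRL/lpr and 2.17, 3.28, 3.85 and 5.53 in Fn14ko. Of 23 cholinergic genes, 2 were higher and 1 lower without the array (13% called, compared with 9.12% over all genes). With all mice 1 of 9 was higher. *Chrm2*, the M2 muscarinic receptor, was at 0.461 and 0.887 compared with 0.136 to 0.234. Of 31 genes of dopamine signalling, 0 were higher and 5 lower without the array, among them the striatal *Ppp1r1b* described above, and 2 of 27 were lower with all mice.

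Of 55 genes of synaptic vesicles and SNARE complexes, which carry out transmitter release, 6 were lower and 0 higher without the array (10.9% called, near the 9.12% over all genes, median -0.30), and 3 of 45 were lower with all mice (median -0.34). *Stx1a*, the plasma membrane SNARE syntaxin 1A, was at 1.36, 1.38, 0.599 and 0.617 in MRL/lpr and at 3.92, 4.19, 6.75 and 4.33 in Fn14ko (-2.36 ± 0.33 with all mice and -1.86 ± 0.21 without the array). *Rims3*, a protein of the active zone, was at 1.35, 2.24, 2.18 and 3.13 compared with 6.28 to 8.01. *Doc2a*, a calcium sensor of asynchronous release, was at 0.385, 0.394, 0.342 and 1.74 in MRL/lpr and at 1.14 to 1.38 in Fn14ko, so that replicate 4 of the weak array lay above all Fn14ko mice and the difference of -1.80 ± 0.15 without the array was -1.22 ± 0.40 with it (adjusted p = 0.0861). General neuronal markers gave 0 rises and 1 fall of 22 without the array and, with all mice, 0 calls by limma of 21 (10 at an unadjusted p below 0.05).

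In the list of calmodulin, CaMKII and plasticity genes, 4 of 38 were higher and 7 lower without the array (median -0.23), and 1 of 32 was higher and 3 lower with all mice (median -0.54). *Camk4*, a nuclear kinase that activates CREB, was at 1.18 and 1.16 in MRL/lpr and at 2.4 to 4.24 in Fn14ko, with its 3 probes from -1.71 to -0.53. Of 37 immediate early genes, 1 was higher and 3 lower without the array (10.8% called, near the 9.12% over all genes, median -0.39). With all mice, 1 of 25 was higher and 0 lower (median -0.53). *Nptx2*, an activity-induced pentraxin that gathers AMPA receptors, was at 0.745 and 0.806 compared with 2.58 to 4.22 (-2.002 ± 0.18), whereas *Dusp1*, a phosphatase of stress kinases, was at 0.692, 1.21, 3.17 and 6.4 compared with 0.18 to 0.497.

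Of 54 potassium channel genes, 11 were lower and 3 higher without the array (25.9% called, compared with 9.12% over all genes, median -0.40). Of the 29 measured with all mice, 1 was lower and 1 higher (median -0.09). *Kcnab3*, a beta subunit of Kv1 channels, was at 1.31 and 1.5 in MRL/lpr and at 4.23, 5.54, 9.86 and 5.98 in Fn14ko. *Kcnf1*, a silent subunit that modifies Kv2 channels, was -2.06 ± 0.20 without the array (adjusted p = 0.000303) and 1.60 ± 1.40 with it (adjusted p = 0.379). The probe of *Kcnf1* that array HL3_HL4 measured was at 0.0235, 0.0329, 2.19 and 2.9 in MRL/lpr and at 0.0711 to 0.106 in Fn14ko, with the 2 arrays of MRL/lpr on opposite sides. Of 31 sodium and calcium channel genes, 3 were lower and 0 higher in both fits, 23 being measured with all mice.

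**Figure D4:**
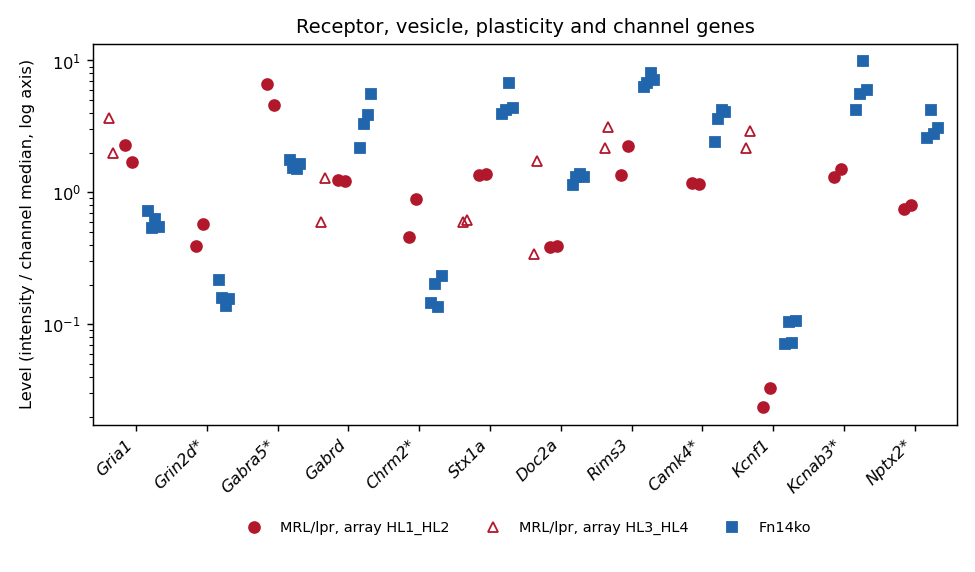
Level of each mouse (log axis, intensity over the channel median) for receptor, vesicle, plasticity and channel genes, with symbols and the asterisk as in the plot of region markers. *Gria1*, *Grin2d*, *Gabra5* and *Chrm2* lie higher in MRL/lpr and *Gabrd*, *Stx1a*, *Rims3*, *Camk4*, *Kcnab3* and *Nptx2* lower, while at *Doc2a* and *Kcnf1* mice of array HL3_HL4 lie above the Fn14ko mice.

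Genes that every cell uses, many of them bright, were lower in the median with the weak array than without it. With all 4 MRL/lpr mice, the median log2 difference was -0.67 over 76 cytosolic ribosomal protein genes, -0.74 over 72 respiratory chain genes and -0.55 over 31 proteasome genes. Without array HL3_HL4, on the same spots, it was 0.02, -0.04 and 0.02. With all mice, 0 genes of the 3 lists were called by limma (16, 23 and 6 at an unadjusted p below 0.05), and without the array 0 of 79, 2 of 74 and 2 of 35. Over the 50 gene lists, the genes called without the array made 156 entries that array HL3_HL4 also measured, of which 136 had the same sign with it. A gene in several lists is counted in each, and at genes dim in Fn14ko the filter favoured a rise on that array.

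**Figure D5:**
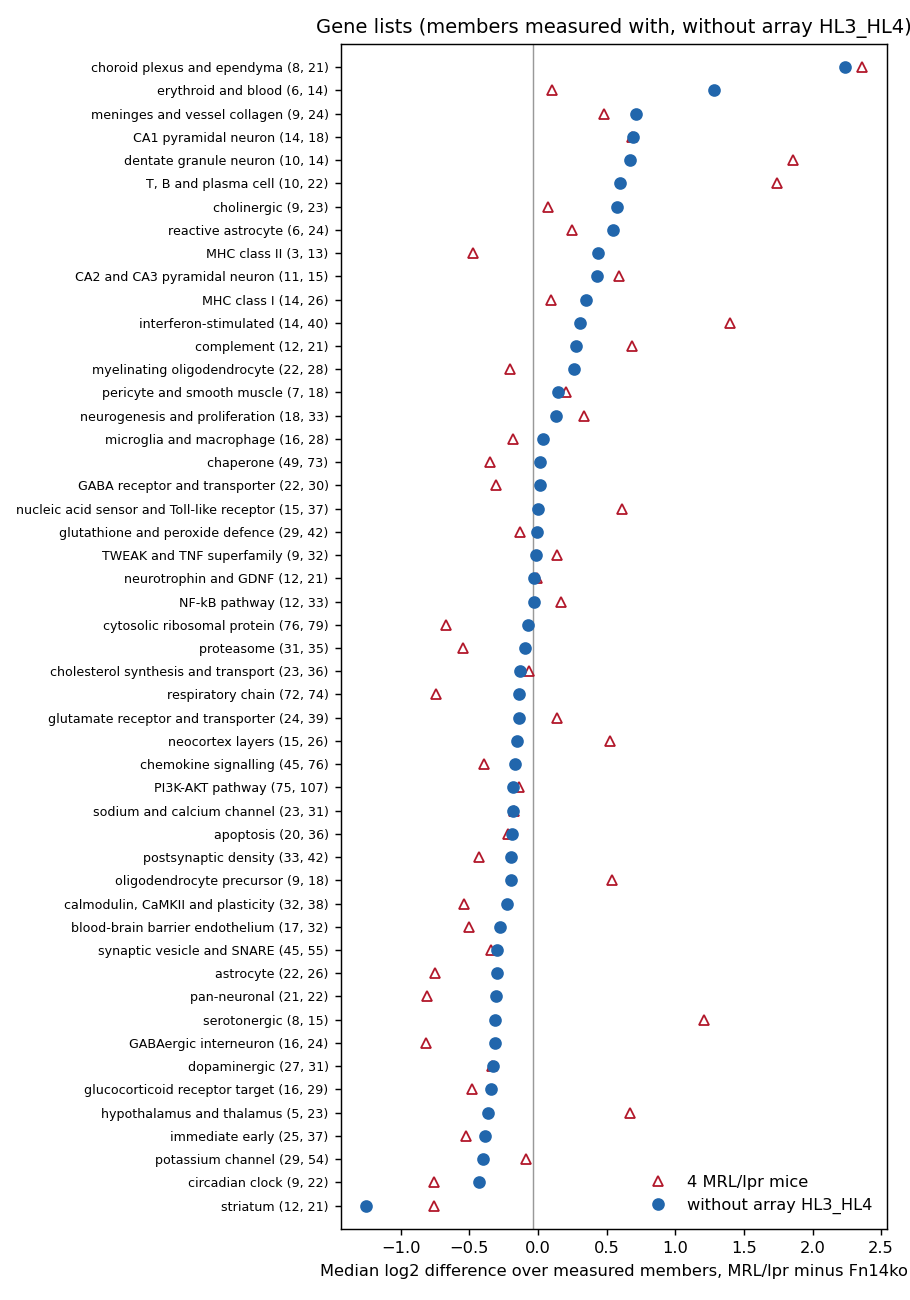
Median log2 difference, MRL/lpr minus Fn14ko, over the measured members of each of 50 gene lists, with the number of members measured with and without array HL3_HL4 in parentheses. Filled circles are medians without the array and open triangles with all 4 MRL/lpr mice, and the vertical line is the median of all genes without the array (-0.04). Choroid plexus genes (2.24) lie at one end and striatal genes (-1.25) at the other, and the ribosomal, respiratory chain and proteasome lists move from near the line to between -0.55 and -0.74 when the weak array is included.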

How the data were processed

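The authors extracted total RNA, labelled it with Cy3 or Cy5, hybridized 2 mice of a phenotype to each array of 60-base probes and scanned it. The deposited files, made with Agilent Feature Extraction 12.1 per the file headers, give the foreground and local background intensity of each spot and dye on a linear scale, not normalized between channels, with probe positions in mm9 and the design's gene names. From these, odd titles were read from the green and even titles from the red channel. Control spots were left out. After subtraction of the local background a spot was valid if its foreground was at least 2 times background and it had no outlier flag. Values were scaled to the median of their channel, and the linear values of all probes for a gene were averaged. This kept 10877 spots in all 12 samples and 25621 in the 10 outside array HL3_HL4. The number of arrays and the signal over background limit the precision.

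With limma 3.58.1 (R 4.3.3), log2 levels were tested (a single fit of all samples with a dye covariate, eBayes with a trend, Benjamini-Hochberg adjustment over all genes). Errors are standard errors of the fit. Where the array was left out, 2 MRL/lpr mice were compared with 4 Fn14ko mice. P-values treat mice as independent although they share arrays. Two-sided exact permutation tests of 4 mice against 4 were made with scipy 1.17.1, and 2 against 4 cannot go below 0.133. Gene lists were described by counts and medians, without a test. The counts called in a list are to be read beside the share over all genes, 9.12% without array HL3_HL4 and 3.98% with all mice. Of 1780 listed symbols, 1766 were matched to the array, 17 of them through RefSeq synonyms.

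The comparison, the lists and the genes to be named were chosen with earlier results of these data known. Named are genes that frame the comparison (*Tnfrsf12a*, *Tnfsf12*, *Fas*, *Akt1*, *Akt2*, *Ttr*) and the largest called rises and falls of each fit. Of each list, up to 4 called members with the smallest p and its brightest member in Fn14ko were open to be named. Described are those that show a direction and the brightest markers of the hippocampal fields. A pair of genes that this rule names is not reported here. Alternatives were other scalings, filters, blocks and leaving out each mouse. On simulated data without array HL3_HL4, 39.4%, 73.1% and 98.5% of genes changed by 1, 2 and 4 on the log2 scale were recovered, and 12.1%, 49.3% and 77.6% with all 12 samples. In each simulation 7 unchanged genes were called. The noise was independent between mice, with 1 spread per gene. In the data, the fitted correlation within arrays was 0.71 with all 12 samples and -0.26 without array HL3_HL4. The simulated shares leave this and the dependence on brightness out, so they are not the power of the real comparison.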

Additional observations from a re-analysis of the deposited data

Results flagged for a closer look

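Among the genes named, other than *Dgat2* and *Wfs1*, 152 groups of 4 mice were tested for a mouse that stands apart from the other 3 (gap to the nearest mouse over the whole range on the log2 scale, above Dixon's critical value), and 7 stood out. Chance alone marks about 1 group in 20.

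In Fn14ko, replicate 1 was the lowest mouse at 3 genes that were lower in MRL/lpr, *Lamp5* (level 1.63 compared with 3.16 to 3.43, ratio 0.889), *Dkkl1* (5.51 compared with 8.49 to 9.19, ratio 0.846) and *Krt12* (1.5 compared with 2.29 to 2.47, ratio 0.849). Also in Fn14ko, replicate 2 was lowest at *Cpne7* (1.07 compared with 1.25 to 1.26, ratio 0.923), and replicate 4 was highest at *Zfp809* (0.0596 compared with 0.0256 to 0.0278, ratio 0.904). In MRL/lpr, both outlying mice were on array HL3_HL4. Replicate 3 was lowest at *Gabrd* (0.593 compared with 1.23 to 1.28, ratio 0.947), and replicate 4 was highest at *Doc2a* (1.74 compared with 0.342 to 0.394, ratio 0.914). At *Doc2a* this mouse lay on the other side of Fn14ko from its group.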

How the results depend on the processing

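With all 12 samples, the 353 genes called became 640 without array HL3_HL4 on the same spots, 663 with the Agilent processed signal, 901 with array weights and 3787 of 29608 with no filter on dim spots. They became 147 with quantile normalization, 207 of 3803 with spots well above background in all samples, 18 with only the 8 samples and 4 with the array as a random block. Within Cy3 and within Cy5, limma called 0 genes, with 671 and 757 at an unadjusted p below 0.05. The methods' t-test gave 1155 genes unadjusted (281 higher and 874 lower) and 0 after Benjamini-Hochberg adjustment, and the methods' composite criterion 341 (136 higher and 205 lower). Leaving out 1 mouse gave 40 to 4298 (3553 and 4298 without MRL/lpr replicates 1 and 2, 101 and 132 without replicates 3 and 4, and 131, 58, 74 and 40 without Fn14ko replicates 1 to 4). The share of higher genes among those called was 55.5%, 66.7% with only the 8 samples and 37.2% with no filter on dim spots. Without array HL3_HL4, the 1636 genes became 2570 with the processed signal, 3483 with array weights, 2847 with the random block and 874 of 9351 with spots well above background, and leaving out 1 mouse gave 303 to 1770. The replicate numbers did not pair the mice (correlations of deviations of same-numbered mice 0.20, -0.06, -0.10 and 0.29), and not every mouse correlated best with its own number. With the replicate block, the counts were 179 with all samples and 618 without the array, the latter chosen after seeing the data.

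With no filter on dim spots, the median of the 8864 genes moved by -1.46, and the signs of *Tnfsf12* (-0.086), *Sema5a* (-0.016), *Epha7* (-0.54), *Rgs14* (-0.87), *Hba-a1* (-1.14), *Cd4* (-0.038), *C4b* (-1.17), *Gfap* (-0.072), *Itgam* (-0.78) and *Kcnf1* (-2.18) turned. The sign of *Dgat2* turned too (-1.10). *C4b* also turned with quantile normalization (-1.01) and within Cy3 (-0.11). *Kcnf1* (-1.65 and -1.43) and *Fgfr1* (1.22 and 1.03) turned without array HL3_HL4 on the same spots and with array weights. *Tnfsf12* without the array turned with the processed signal (0.13). With 1 mouse left out, the value ran from -0.26 to 1.09 for *Hba-a1*, from -0.30 to 0.88 for *C4b* and from -0.77 to 0.38 for *Fgfr1* with all samples, and from -0.19 to 0.11 for *Tnfsf12* and from -0.23 to 0.59 for *Ydjc* without the array. The causes were not tested, other than fewer samples or spots where an alternative leaves them out. Under quantile normalization and the processed signal, the median of all genes was -0.12 and -0.09, compared with 0.03.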
